A study of Homo sapiens with 4 samples.

Results

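The plakin genes PLEC, MACF1 and DST encode giant proteins that tie the cytoskeletal networks of a cell to each other and to its attachment sites. Their skipped exons were followed by RNA sequencing after loss of the splicing factor SNRPB2 in MDA-LM2 cells, which were derived from the breast cancer line MDA-MB-231 and form metastases in the lung. SNRPB2 codes for U2B'', part of the U2 particle of the spliceosome, which binds the branch point of an intron. The siSNRPB2 group had 2 libraries from cells given siRNA against SNRPB2, and the siCtrl group had 2 libraries from cells given a control siRNA, all harvested at 48 h. Per the labels, 2 siRNAs were chosen, each lowering SNRPB2 by over 95% in quantitative PCR. Which siRNA went into which library is not stated there. Exons were members if a boundary of the skipped exon matched a GENCODE release 29 exon of PLEC, MACF1 or DST, with no minimum of reads. This gave 20 exons of 38121 in all, with 3 in PLEC, 12 in MACF1 and 5 in DST, each in a single event.

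Plectin, the product of PLEC, binds intermediate filaments and also joins them to actin, to microtubules and to hemidesmosomes, the junctions that fix epithelial cells to the basement membrane. MACF1 and DST are spectraplakins: an actin-binding domain at the start, a long row of spectrin repeats and a microtubule-binding end let them guide microtubules along actin. All of these genes produce many isoforms by alternative first exons and by cassette exons, which add or remove short stretches of protein. PLEC is known as a splicing target of SNRPA1, the U2 protein that pairs with U2B''.

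The exons below carry the comparisons that follow. They are written 5′ to 3′ on the transcript, from GENCODE release 29 transcripts (hg38), with the skipped exon in capitals and 20 bases of each neighbouring exon in lower case. The first is the MACF1 exon that differed most between the files, on chromosome 1, 39378461 to 39378523 (plus strand).
MACF1 63 nt: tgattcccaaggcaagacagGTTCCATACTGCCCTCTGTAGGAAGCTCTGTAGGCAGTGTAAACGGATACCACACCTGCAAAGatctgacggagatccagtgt
The others are exons of MACF1 (chromosome 1, plus strand) and DST (chromosome 6, minus strand) that lie at matching places near the 3′ ends of the genes, shown to let the paired genes be read against each other.
MACF1 69 nt: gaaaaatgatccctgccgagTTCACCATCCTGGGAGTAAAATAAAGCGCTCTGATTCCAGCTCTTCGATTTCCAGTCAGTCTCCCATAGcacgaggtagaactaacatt
DST 72 nt: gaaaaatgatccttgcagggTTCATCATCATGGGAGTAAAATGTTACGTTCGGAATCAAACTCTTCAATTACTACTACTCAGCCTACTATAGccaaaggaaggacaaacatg
MACF1 111 nt: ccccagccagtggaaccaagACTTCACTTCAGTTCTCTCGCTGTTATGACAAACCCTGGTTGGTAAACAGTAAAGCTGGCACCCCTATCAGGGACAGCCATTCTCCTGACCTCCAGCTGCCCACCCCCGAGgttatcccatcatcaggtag
DST 111 nt: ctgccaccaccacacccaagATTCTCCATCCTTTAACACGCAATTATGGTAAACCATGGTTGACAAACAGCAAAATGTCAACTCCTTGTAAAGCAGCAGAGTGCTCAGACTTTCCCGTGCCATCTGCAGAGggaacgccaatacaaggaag

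Each file holds a single inclusion level per event and group: ψ, the share of a gene's transcripts in which the exon is kept, with an interval whose level is not given. No difference between the groups could therefore be set against a spread between replicates. Reads fitting only the isoform with the exon are called inclusion reads here, those fitting only the isoform without it skipping reads, and both together informative reads. Reads that fit both isoforms lie in the neighbouring exons and are called flanking reads. The siSNRPB2 file held 93580246 reads over all events and the siCtrl file 100579230. Of these, 61.2% in siSNRPB2 and 59.1% in siCtrl fitted neither isoform. No event was assigned to SNRPB2 itself. Reads per gene were scaled to 1e+06 reads fitting either isoform, summed over 1 event per gene. Among genes typical of the mesenchymal state of this line, AXL had 243 reads per 1e+06 in siSNRPB2 and 291 in siCtrl. ZEB1 had 246 in siSNRPB2 and 212 in siCtrl, but SPARC only 5.67 in siSNRPB2 and 5.89 in siCtrl. The epithelial ESRP1 had 2.03 in siSNRPB2 (33 reads) and 0.545 in siCtrl (10 reads). VIM, CDH1 and EPCAM had no event.

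Of the 20 plakin exons, 18 had 20 or more informative reads per file and were tested: all 3 of PLEC, all 5 of DST and 10 of 12 in MACF1. A call needed 2 values in the authors' deposited table: a ψ difference, siSNRPB2 minus siCtrl, of 0.1 or more in size, and a Bayes factor of 10 or more. A single plakin exon was called lower, the 63-nt exon of MACF1, and a single one higher, the 2730-nt exon of DST; no PLEC exon was called. That is 2 of 18 exons, or 11.1%, near the 14.7% of all 18682 tested exons (7.61% lower and 7.13% higher). The median ψ difference was 0 in both sets, and its median size was 0.015 for plakin exons against 0.03 for all exons. In 13 of the 18 the difference was under 0.05.

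**Figure D1:**
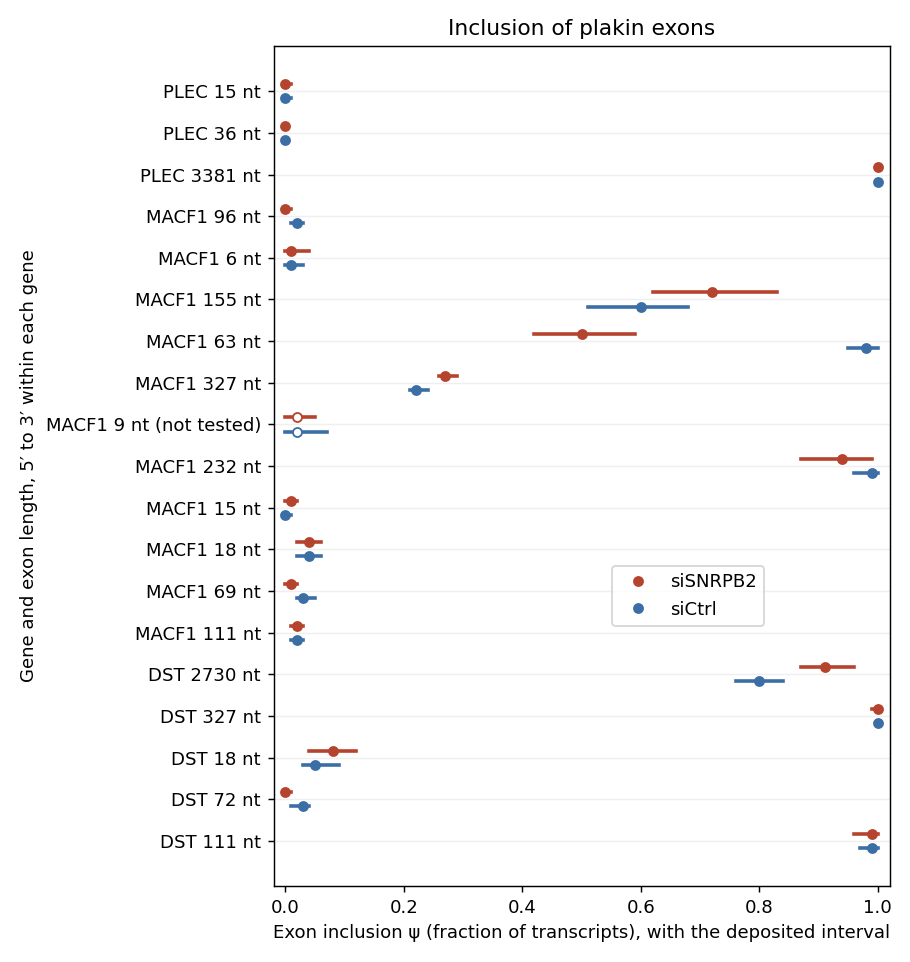
Inclusion level ψ (fraction of transcripts, horizontal axis) of 19 plakin exons, named by gene and length in nucleotides, in siSNRPB2 (red) and siCtrl (blue); bars are the deposited intervals and open symbols mark an exon that was not tested. The MACF1 63-nt exon stands at 0.5 in siSNRPB2 and 0.98 in siCtrl, and most other exons lie near 0 or 1 in both files.

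The MACF1 exon of 63 nt was skipped far more often in the siSNRPB2 file than in the siCtrl file, where by ψ nearly all transcripts kept it. Its ψ was 0.5 in siSNRPB2 (interval 0.42 to 0.59) and 0.98 in siCtrl (0.95 to 1), so the intervals were far apart. Skipping reads, which cross directly between the neighbouring exons, numbered 27 in siSNRPB2 and 0 in siCtrl. Inclusion reads numbered 110 in siSNRPB2 and 253 in siCtrl. The neighbouring exons did not show this drop, with 770 flanking reads in siSNRPB2 and 677 in siCtrl.

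Set against its neighbours, the exon had 0.816 times their reads per nucleotide in siSNRPB2 and 2.14 times in siCtrl. Of the informative reads, 19.7% skipped the exon in siSNRPB2 (exact 95% interval 13.4 to 27.4). In siCtrl 0 of 253 did, with an exact 95% interval of 0 to 1.45%. These intervals cover counting error only. The Bayes factor in the authors' deposited table was 1e+12, the largest value in it, which other exons share, among them that of SUN1.

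Fisher's exact test (2-sided) on inclusion and skipping reads compares the files, not the conditions, and gave an adjusted p of 8.80e-12 with Benjamini-Hochberg adjustment over all tested exons. By this test, with a read share different by at least 0.1, 10.6% of all tested exons passed, and of the 18 plakin exons only the MACF1 63-nt exon did. The 6 plakin exons without a skipping read in either file could not pass. This test takes reads as independent and coverage along a transcript as the same in both files. In 4436 exons that nearly all transcripts keep, inclusion and flanking reads of the files gave a median chi-square 10.3 times that under those assumptions; which of them was not met was not tested. With reads divided by that factor, Fisher's exact test gave the MACF1 exon an unadjusted p of 0.0398 and an adjusted p of 1; only 3 of all tested exons then passed.

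In the longest annotation, MACF1-232, it is exon 53 of 101, in coding sequence, between introns of 5864 nt upstream and 679 nt downstream. GENCODE has 5 MACF1 transcripts with the exon, and 1, MACF1-205, joins its neighbours directly. Its 63 nt make 21 codons, so skipping keeps the reading frame. The next 3 exons of MACF1 by size of ψ difference had no skipping read in either file.

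The first of these is a 155-nt exon on chromosome 1, 39302924 to 39303078, exon 23 of 101 in MACF1-232. Its ψ was 0.72 in siSNRPB2 (0.62 to 0.83) and 0.6 in siCtrl (0.51 to 0.68), with 296 inclusion reads in siSNRPB2 and 254 in siCtrl. With 0 skipping reads in both files, this ψ rests on coverage and no read showed the exon skipped. Reads per nucleotide in the exon were 0.857 times those of the neighbouring exons in siSNRPB2 and 0.718 times in siCtrl. The ψ intervals overlapped, and the Bayes factor, 0.78 by the authors' deposited table, was below the threshold. Its length is not a multiple of 3, so a transcript without it would change reading frame; 7 coding transcripts keep it and a single transcript, MACF1-224, annotated as a target of nonsense-mediated decay, lacks it.

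The 327-nt exon of MACF1, on chromosome 1, 39427961 to 39428287, had a ψ of 0.27 in siSNRPB2 (0.26 to 0.29) and 0.22 in siCtrl (0.21 to 0.24). The intervals did not overlap, and the Bayes factor in the authors' deposited table was 25369.5, but the difference of 0.05 missed the minimum for a call. It had 1463 inclusion reads in siSNRPB2 and 1193 in siCtrl, and 0 skipping reads in both. The ψ therefore rests on coverage: reads per nucleotide were 0.34 times those of the neighbouring exons in siSNRPB2 and 0.277 times in siCtrl.

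The 232-nt exon of MACF1, on chromosome 1, 39437777 to 39438008, had a ψ of 0.94 in siSNRPB2 (0.87 to 0.99) and 0.99 in siCtrl (0.96 to 1), with overlapping intervals. It had 1332 inclusion reads in siSNRPB2 and 1394 in siCtrl. Its event takes a 9-nt exon as the upstream neighbour. That small exon, on chromosome 1, 39436482 to 39436490, had no informative read in either file and was not tested; its deposited ψ was 0.02 in both, resting on flanking reads alone (3428 in siSNRPB2 and 3830 in siCtrl). The remaining untested member, a 55-nt exon outside the coding sequence near the 5′ end of MACF1, was listed in siCtrl only, with 9 flanking and no informative reads.

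**Figure D2:**
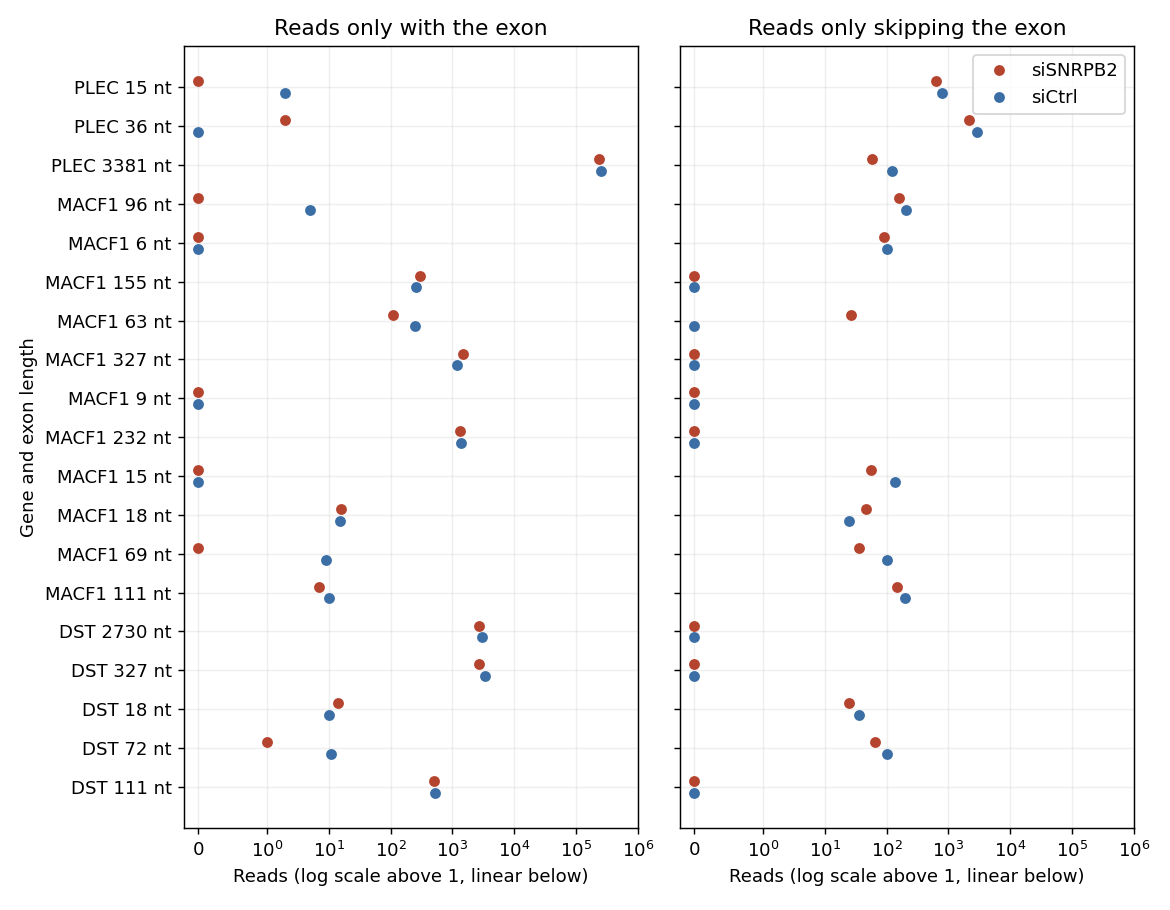
Reads that fit only the isoform with the exon (left) and only the isoform without it (right), for the same 19 plakin exons in siSNRPB2 (red) and siCtrl (blue); the horizontal axes are logarithmic above 1 and linear below. For the MACF1 63-nt exon 27 skipping reads in siSNRPB2 stand against 0 in siCtrl, and 6 tested exons have none in either file.

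Among the 10 tested MACF1 exons 6, with lengths of 6, 15, 18, 69, 96 and 111 nt, had a ψ of 0.04 or less in both files. The 96-nt exon (chromosome 1, 39251846 to 39251941) lies in the part that encodes the actin-binding domain. It had 0 inclusion and 158 skipping reads in siSNRPB2, against 5 and 206 in siCtrl, with ψ of 0 in siSNRPB2 and 0.02 in siCtrl. The 6-nt exon (39299252 to 39299257), annotated only in MACF1-224, had 0 inclusion reads in both, with 90 skipping reads in siSNRPB2 and 102 in siCtrl. The 15-nt exon (39459818 to 39459832), annotated only in the short transcript MACF1-202, also had 0 inclusion reads, with 56 skipping reads in siSNRPB2 and 136 in siCtrl. Counts of 0 allow shares of inclusion reads of up to 3.33% in siSNRPB2 and 2.94% in siCtrl for the 6-nt exon, and of up to 5.36% in siSNRPB2 and 2.21% in siCtrl for the 15-nt exon.

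Near the 3′ end of MACF1, where the protein binds microtubules, 3 cassette exons follow each other and share neighbours. The 18-nt exon (39465095 to 39465112) had 16 inclusion and 47 skipping reads in siSNRPB2, while siCtrl had 15 and 25. Inclusion reads were thus 25.4% of informative reads in siSNRPB2 and 37.5% in siCtrl, while the deposited ψ, which also uses flanking reads, was 0.04 in both. The 69-nt exon (39469547 to 39469615) had 0 inclusion and 36 skipping reads in siSNRPB2, against 9 and 102 in siCtrl, with ψ of 0.01 in siSNRPB2 and 0.03 in siCtrl. The 111-nt exon (39480920 to 39481030) had 7 and 148 in siSNRPB2, against 10 and 199 in siCtrl, with ψ of 0.02 in both. All 3 had overlapping ψ intervals, and Bayes factors between 0 and 0.41 in the authors' deposited table.

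DST had the other call. Its 2730-nt exon, on chromosome 6, 56617986 to 56620715, is exon 23 of 24 in DST-205, the transcript that ends in the next exon and corresponds to the epithelial isoform known as BPAG1-e, which anchors keratins at hemidesmosomes. The ψ was 0.91 in siSNRPB2 (0.87 to 0.96) and 0.8 in siCtrl (0.76 to 0.84), a difference of 0.11 just over the minimum, and the authors' deposited table gave it a Bayes factor of 411.88. There were 2652 inclusion reads in siSNRPB2 and 2973 in siCtrl, and no skipping read in either file. A count of 0 allows a skipping share of up to 0.113% in siSNRPB2 and 0.101% in siCtrl. Inclusion reads come from the whole length of this long exon, so these limits are too low for the fraction of transcripts without it. The flanking reads were 3103 in siSNRPB2 and 3945 in siCtrl, and the called difference rests on coverage: reads per nucleotide were 0.921 times those of the neighbours in siSNRPB2 and 0.812 times in siCtrl.

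The other DST exons differed by 0.03 or less. The 327-nt exon, on chromosome 6, 56529448 to 56529774, had a ψ of 1 in both files, with 2671 inclusion reads in siSNRPB2 and 3318 in siCtrl and no skipping read. The 111-nt exon, 56463046 to 56463156, had a ψ of 0.99 in both, with 509 inclusion reads in siSNRPB2 and 519 in siCtrl and no skipping read. The 18-nt exon, 56468982 to 56468999, had 14 inclusion and 25 skipping reads in siSNRPB2, against 10 and 36 in siCtrl, with ψ of 0.08 in siSNRPB2 (0.04 to 0.12) and 0.05 in siCtrl (0.03 to 0.09). The 72-nt exon, 56464685 to 56464756, had 1 inclusion and 65 skipping reads in siSNRPB2, against 11 and 102 in siCtrl, with ψ of 0 in siSNRPB2 and 0.03 in siCtrl. Neither difference passed Fisher's exact test (adjusted p = 0.78 for the 18-nt and 0.251 for the 72-nt exon).

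**Figure D3:**
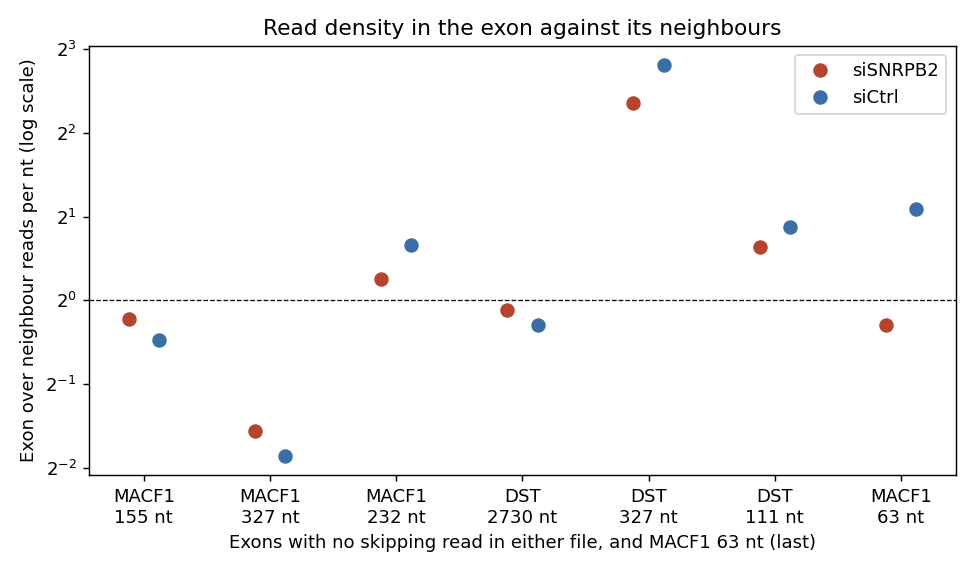
Reads per nucleotide in the exon divided by reads per nucleotide in its 2 neighbours (vertical axis, log scale) in siSNRPB2 (red) and siCtrl (blue), for the 6 tested exons with no skipping read and, last, the MACF1 63-nt exon. The MACF1 63-nt exon stands at 0.816 in siSNRPB2 and 2.14 in siCtrl, and the MACF1 327-nt exon is lowest, at 0.34 in siSNRPB2 and 0.277 in siCtrl.

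The gene pairs could be compared where cassette exons lie at matching places. Pairs were taken, after the values were seen, where both neighbouring exons differed by at most 10% in length and at least 1 of them was at least 60% identical in sequence. This gave 4 pairs of MACF1 with DST and 1 of PLEC with MACF1. In the pair of 18-nt exons ψ was low in both genes. Inclusion reads were a larger share of their informative reads, in MACF1 25.4% in siSNRPB2 and 37.5% in siCtrl. In DST they were 35.9% in siSNRPB2 and 21.7% in siCtrl. In the pair of 69 nt in MACF1 and 72 nt in DST, printed above, 70.8% of aligned positions were identical, and by ψ both were nearly always skipped.

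The remaining 2 pairs of MACF1 with DST differed in ψ between the genes in both groups. The 111-nt exons, 59.3% identical, had a ψ of 0.02 in MACF1 and 0.99 in DST, in siSNRPB2 and in siCtrl alike. The 327-nt exons, 59.5% identical, have neighbours of the same lengths (160 and 85 nt) in the genes; ψ was 0.27 in MACF1 and 1 in DST in siSNRPB2, and 0.22 in MACF1 and 1 in DST in siCtrl. In these pairs the ψ intervals of the genes lay far apart in each file, whereas those of the 18-nt pair overlapped. No skipping read was seen in either 327-nt exon, so ψ rests on coverage in both genes and junction reads show no difference between them. The MACF1 coverage is given above. In DST, reads per nucleotide in the exon were 5.12 times those of the neighbours in siSNRPB2 and 6.98 times in siCtrl.

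**Figure D4:**
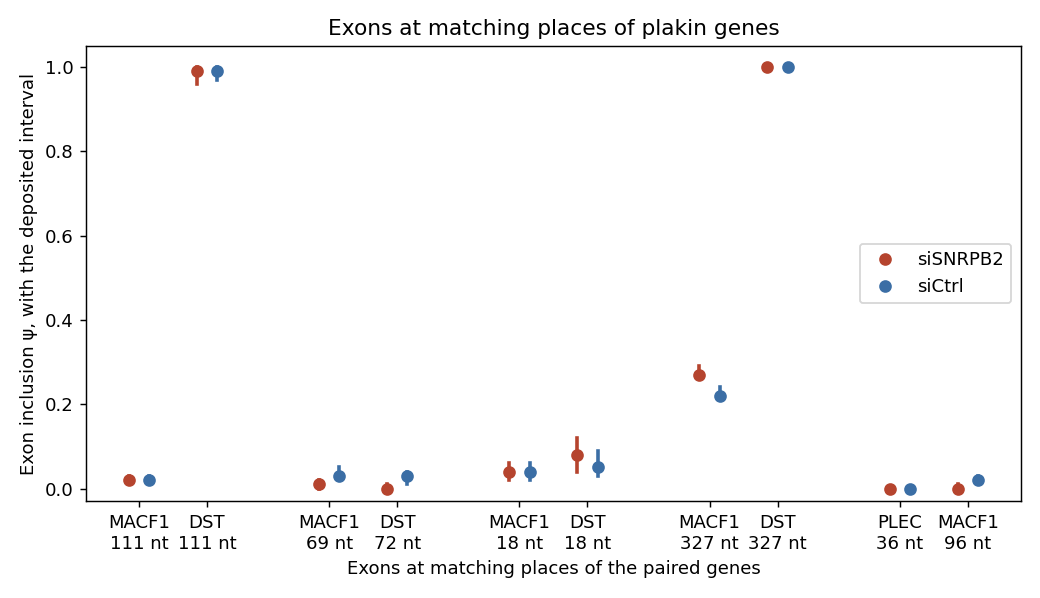
Inclusion level ψ (vertical axis, fraction of transcripts, with the deposited intervals) of exons at matching places of 2 plakin genes, in siSNRPB2 (red) and siCtrl (blue), named by gene and length. The 18-nt exons and the 69-nt and 72-nt exons lie below 0.1 in both genes, while the 111-nt and 327-nt exons are at 0.99 and 1 in DST and at 0.02 and between 0.22 and 0.27 in MACF1.

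PLEC, on the minus strand of chromosome 8, showed no difference in ψ. Its 3381-nt exon (143922504 to 143925884) encodes the central coiled-coil rod of plectin, and its removal gives the form known as rodless plectin. It was kept in nearly all transcripts, with ψ of 1 in both files, on 230646 inclusion reads in siSNRPB2 and 250184 in siCtrl. At this depth a small rodless fraction was read, with 59 skipping reads in siSNRPB2 and 123 in siCtrl. Skipping reads were 0.0256% of informative reads in siSNRPB2 (exact 95% interval 0.0195 to 0.033, counting error only) and 0.0491% in siCtrl (0.0408 to 0.0586).

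The skipping share of the rod exon was thus lower in siSNRPB2 by Fisher's exact test on reads (adjusted p = 3.50e-04), but not with reads divided by the noise factor above (Fisher's exact test, adjusted p = 1). The inclusion reads come from the whole length of this long exon, so these shares understate the fraction of rodless transcripts. The small exons of PLEC lie in the part that encodes the actin-binding domain and are known from mouse plectin as tissue-restricted inserts. The 36-nt exon (143937749 to 143937784) had 2 inclusion and 2123 skipping reads in siSNRPB2, while siCtrl had 0 and 2916. The 15-nt exon (143938401 to 143938415) had 0 and 623 in siSNRPB2, against 2 and 788 in siCtrl. Both had a ψ of 0 in each file.

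The 36-nt exon of PLEC and the 96-nt exon of MACF1 form the remaining pair. Their neighbours have the same lengths (90 and 78 nt) and are 77.8% and 85.9% identical, while only 22 bases of the exons themselves could be aligned as identical. Both were skipped in nearly all transcripts in both groups, with ψ of 0 in each file for PLEC, and of 0 in siSNRPB2 and 0.02 in siCtrl for MACF1.

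Plakin exons were also set beside all tested exons in length and inclusion. They come from related genes, and 10 of the 20 members share a neighbouring exon with another event, so they are not independent. In 16 of the 18 tested exons the length was a multiple of 3 (88.9%), against 41.8% of all tested exons. Exons of at most 30 nt made up 5 of the 18 (27.8%), against 1.87% of all. A ψ of at most 0.1 in both files was found in 10 of 18 (55.6%), against 20.4% of all. Exons without a skipping read in either file were 6 of 18 (33.3%), against 51.1% of all.

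**Figure D5:**
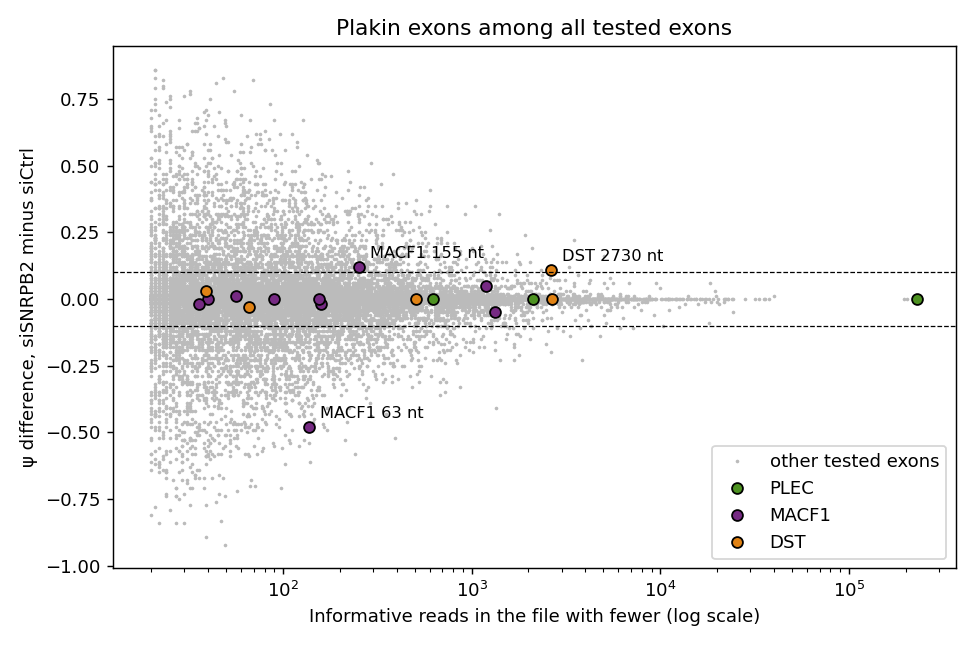
Difference in ψ, siSNRPB2 minus siCtrl (vertical axis), against informative reads in the file that has fewer (log scale), for all tested exons (grey) and those of PLEC (green), MACF1 (purple) and DST (orange); dashed lines mark a difference of 0.1. The MACF1 63-nt exon lies at -0.48, the MACF1 155-nt exon at 0.12 without a call and the DST 2730-nt exon at 0.11.

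Reads across the same skipping junctions varied between the files even where ψ did not. In 9 plakin exons with ψ of at most 0.1 and at least 100 flanking reads in each file, the ratio of skipping to flanking reads in siSNRPB2 was between 0.409 (MACF1 15 nt) and 1.8 times (MACF1 18 nt) that in siCtrl, with a median of 0.789. Over the 3021 exons of all genes of this kind the median was 1.01, and the middle 80% lay between 0.51 and 1.98.

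Reads over events gave a rough view of gene level, as a share and not an amount. The share was of reads fitting either isoform, summed over 1 event per gene. Fewer cells with a gene's RNA and less of that RNA per cell cannot be told apart. On its deepest event each gene had a level per length. PLEC had 3116 reads per kilobase of event exons per 1e+06 reads in siSNRPB2 and 3105 in siCtrl, MACF1 had 505 in siSNRPB2 and 422 in siCtrl, and DST had 62.5 in siSNRPB2 and 66.5 in siCtrl. The DST value comes from the event of the 2730-nt exon, annotated only in DST-205, and need not hold for other DST transcripts. The log2 ratios were 0.00 for PLEC, 0.26 for MACF1 and -0.09 for DST, within the middle 80% of 8331 genes with at least 100 reads (-0.50 to 0.48). In siCtrl PLEC thus lay above 99.4% of these genes per length. Within a gene the events differed widely: in siCtrl from 44.0 for the 96-nt to 743 for the 18-nt exon among tested MACF1 events, and from 66.5 for the 2730-nt to 356 for the 18-nt exon in DST. Log2 ratios of the single events lay between -0.16 and 0.28 for tested MACF1 exons, between -0.09 and 0.30 in DST and between -0.23 and 0.00 in PLEC.

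Genes that work with plakins were counted by list, all with the same call. The related plakins DSP, PPL, EVPL and EPPK1 had no tested exon, and intermediate filament and lamin genes had 0 of 8 called. Hemidesmosome genes had 1 of 18 called higher, in ITGA6, the integrin chain paired with ITGB4 (ψ 0.52 in siSNRPB2 and 0.32 in siCtrl). The nesprin and SUN proteins, which join plakins to the nucleus, had 2 lower and 2 higher of 24, with SUN1 lower (ψ 0.65 in siSNRPB2 and 0.94 in siCtrl) on 60 skipping reads in siSNRPB2 and 6 in siCtrl. SUN2 had a 65-nt exon lower (ψ 0.05 in siSNRPB2 and 0.24 in siCtrl) and a 138-nt exon higher (ψ 0.98 in siSNRPB2 and 0.55 in siCtrl), which had no skipping read in either file.

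Genes of microtubule ends and lattice had 5 lower and 1 higher of 34. CLASP1, a plus-end protein that binds MACF1, had a 48-nt exon lower (ψ 0.06 in siSNRPB2 and 0.49 in siCtrl), with 3 inclusion and 23 skipping reads in siSNRPB2, while siCtrl had 19 and 6. MAP4 was lower (ψ 0.44 in siSNRPB2 and 0.68 in siCtrl) and CAMSAP1, a minus-end protein, higher (ψ 0.69 in siSNRPB2 and 0.21 in siCtrl), both without skipping reads. Actin crosslinkers with calponin homology domains, the fold that plakins also use to bind actin, had 1 lower and 4 higher of 44. MICAL1 was higher without skipping reads (ψ 0.34 in siSNRPB2 and 0.09 in siCtrl), and FLNA was lower (ψ 0.47 in siSNRPB2 and 0.65 in siCtrl). Over all lists 8 were lower and 8 higher of 128 exons (12.5%), near the 14.7% of all tested exons. On unscaled reads, Fisher's exact test gave adjusted p of 2.83e-12 for SUN1, 5.56e-05 for CLASP1 and 5.89e-04 for the 65-nt exon of SUN2. It gave 3.83e-03 for ITGA6 and 0.694 for FLNA. With reads divided by the noise factor none of the exons named here passed Fisher's exact test (adjusted p = 1 for each). Only 3 of all tested exons then passed. The CLASP1 exon had too few reads to pass after scaling, and exons without a skipping read could not pass with or without scaling.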

How the data were processed

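Stranded total RNA libraries were made from 4 cell samples, 2 for each siRNA group, per the labels. Alignment to hg38 used STAR 2.7 (the submitters' processing notes). The authors deposited, per the file headers, MISO inclusion levels (ψ) as a fraction with an interval, read numbers per class as counts in text, and a comparison with the ψ difference and the Bayes factor, a ratio. The version and event annotation of MISO, the interval's level and any merging of libraries were not stated in the labels or headers.

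Events were assigned by shared exon boundary and strand to GENCODE release 29. Per exon the event with the most informative reads was kept. Fisher's exact test was adjusted by Benjamini-Hochberg over all tested exons, and was tested on simulated data. The noise factor came from exons without skipping reads whose ψ was 0.95 or more in each file, with at least 5 expected reads per class; dividing by it was chosen with the data known. Exact intervals and limits for a count of 0 (3 counts) cover counting error only. Reads per gene were compatible reads of the deepest event over the total of 1 event per gene, with a pseudocount of 1 for log2 ratios. Exons were aligned globally for identity. Full values were given for called exons, for tested exons with ψ from 0.1 to 0.9 in either file, for the 5 others with the largest difference, and for up to 3 called exons per list; smaller differences were added to show every member. Some items that these rules name are not reported here. Members and lists were chosen with earlier results of these data known. Alternatives changed the minimum of reads, the Bayes factor, the ψ difference and the estimator. Intron and protein sequences were not analysed here. Tools were Python 3.11.15 with biopython 1.88, matplotlib 3.10.9, numpy 2.4.6, pandas 2.3.3 and scipy 1.17.1.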

Additional observations from a re-analysis of the deposited data

Results flagged for a closer look

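Reads at odds with both isoforms, for example in introns, entered no comparison above. Over all events they made up 61.2% of reads in siSNRPB2 and 59.1% in siCtrl. For the MACF1 6-nt exon they were 24.5% of the event's reads in siSNRPB2 (266 reads), above the 12.6% in siCtrl (113 reads), 1.95 times the control share. It was singled out because this share exceeded that of the control file by at least 1.5 times, a limit chosen after the data were seen. This was the case for 1 of 18 plakin exons (5.56%) and for 4.94% of all tested exons, and the plakin median ratio was 1.00. The cause was not tested.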

How the results depend on the processing

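No paired analysis was possible because the files hold a single value per group and no library of its own, so no library could be left out either. The MACF1 63-nt exon was called lower under all 7 alternatives to the call. Its ψ difference was -0.48, its Bayes factor 1e+12 and its skipping reads 27 in siSNRPB2. The changed minima and the filter on skipping reads therefore could not remove this call. Fisher's exact test with scaled reads, not among the 7, did not call it. The DST 2730-nt exon was not called with a minimum ψ difference of 0.2 (0 plakin exons higher), with Fisher's exact test on reads (0) or among exons with a skipping read (0), and the MACF1 327-nt exon joined it at a minimum of 0.05 (2 higher). As the DST exon had no skipping read, Fisher's exact test and the filter on skipping reads could not call it. Its share of inclusion reads could not differ either. By the share of inclusion reads the difference was -0.197 for the MACF1 63-nt exon, against -0.48 by ψ, and 0 for the DST exon, against 0.11. Over all genes, exons with a skipping read gave 869 lower and 797 higher calls, against 1422 and 1332, and at least 50 informative reads gave 885 higher calls. The lists had 7 called exons at a minimum of 0.2, against 16. The read test passed 1218 exons with at least 50 informative reads and 3 with scaled reads, against 1972. With all reads of the event the log2 ratio of PLEC was -0.054, against 0.0047. The cause of these shifts was not tested beyond the fewer exons that stricter minima leave.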
